A study of Cucurbita pepo with 12 samples.

Results

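Root transcripts of zucchini grown with copper sulfate were compared with those of untreated roots. The comparison rests on 2 of the 12 libraries of the series, 1 per side, and on 20985 of 27868 genes in the table, those with a mean of at least 1 FPKM (fragments counted per transcript length and sequencing depth) over the 4 root libraries. Plants were Cucurbita pepo of the cultivar Costata Romanesco, germinated for 10 days and then grown 1 per pot in 500 g of soil for 60 days. Control pots received no copper, and the treated pot soil received CuSO4 pentahydrate at 320 mg/kg, about 80 mg/kg of copper. The other 2 root libraries came from soil with CuO nanoparticles or with CuO of larger particle size (bulk CuO), each at 100 mg/kg and the same amount of copper. Leaf and pollen were sampled under the same 4 treatments. The series text mentions 3 biological replicates per treatment, while the labels list 1 library per tissue and treatment, and whether RNA was pooled before sequencing is not given in the sources read. No replicate spread, and so no p-value, stands behind a difference between the treated and the control root. In bulk RNA, fewer cells of a type and less RNA per cell cannot be told apart.

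Copper is a cofactor of enzymes of respiration, photosynthesis and the defence against reactive oxygen, and it is toxic in excess. Roots take it up from the soil solution through membrane transporters, and bind surplus ions with small sulfur-rich peptides and proteins. Copper sulfate is a soluble salt that releases copper ions at once, whereas copper oxide particles dissolve slowly.

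No gene of the table could be given a name or a role, because the gene table of RefSeq for assembly ASM280686v2 matched 0 of its 27868 IDs. The lists for copper transport, metal binding, oxidative stress, nutrient uptake, cell wall and defence could not be applied for that reason, and root identity could not be checked against marker genes. Genes are described by their ID, their level and their pattern over libraries, and no sequence is shown. An ID such as Cp4.1LG19g12000 holds a linkage group (LG19) and a number that increases in steps of 10. The prefix LG00 is a further class of IDs whose meaning the table does not give.

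The root libraries were alike in size. Between 20550 and 20881 genes reached 1 FPKM in each, and the spacing of the lowest values put the depth of the CuSO4 library at 0.916 of that of the control library. Among the genes kept, 81 were listed at 0 in the CuSO4 library and 52 to 64 in the other 3.

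Differences were taken as log2(FPKM + 1) under CuSO4 minus control. On this scale the change of weakly expressed genes comes out too small. Over all genes the median difference was -0.07, the quartiles were -0.31 and 0.19, and the SD over genes was 0.51. At 2.3, the threshold that the series text names, equal to a 4.92-fold difference in FPKM + 1, 33 genes were higher under CuSO4 (0.157% of the genes kept) and 72 were lower (0.343%). At 1, a 2-fold difference, the directions were nearly balanced, with 531 genes higher (2.53%) and 551 lower (2.63%). The share of higher genes among those past the threshold fell from 49.1% at 1 to 33.8% at 2, 31.4% at 2.3 and 24.2% at 3, and was 41.7% at 4, where 5 genes were higher and 7 lower. The filter passed genes down to a mean of 1 FPKM, and the closest gene outside it had 0.99975 FPKM. The genes next to the threshold had differences of 2.301 inside and 2.285 outside among higher genes, and of -2.348 inside and -2.295 outside among lower genes.

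**Figure D1:**
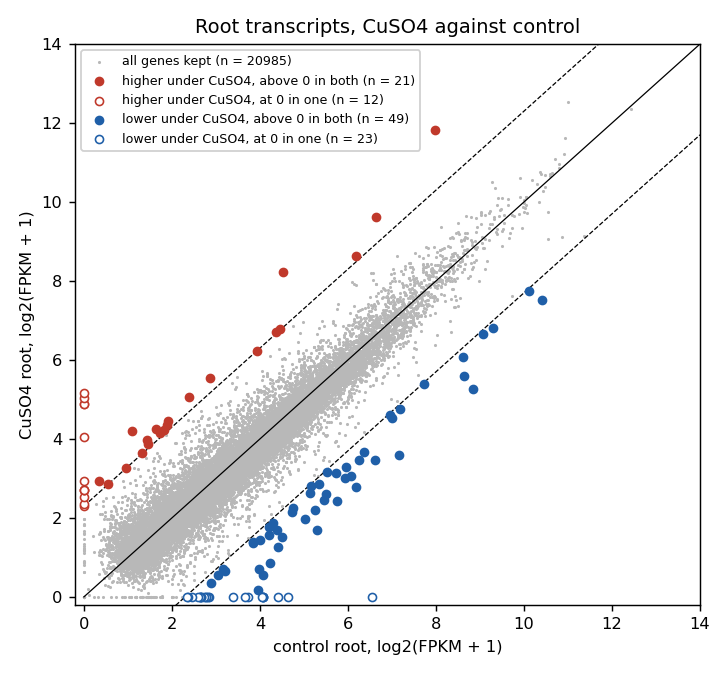
Level in the control root library (horizontal) and the CuSO4 root library (vertical), both as log2(FPKM + 1), 1 point per gene. Dashed lines mark differences of 2.3, open symbols are genes listed at 0 in 1 of the 2 libraries (12 higher and 23 lower), and the lower genes reach control levels of up to 1361 FPKM, the higher genes of up to 250.4 FPKM.

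Lower and higher genes were found at every level, and the share of each was largest among the most abundant genes. Of 947 genes with a root mean of 100 FPKM or more, 8 were lower (0.845%) and 4 higher (0.422%), against 5 lower (0.228%) and 2 higher (0.0914%) of 2189 genes between 1 and 2 FPKM. The scale used makes the change of weakly expressed genes too small, so they pass the threshold less easily. Their low shares are thus partly set by the scale, and no dependence on level is read from them. The SD of the difference was 0.47 to 0.56 in every level class below 100 FPKM and 0.61 at 100 FPKM or more. Of the 72 lower genes, 12 stood at 100 FPKM or more in control root, between 124 and 1361 FPKM, and at 11.1 to 212 FPKM under CuSO4. Of the 33 higher genes, 6 reached 100 FPKM under CuSO4, between 104 and 3648 FPKM, from 19.6 to 250.4 FPKM in the control.

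Among genes above 0 FPKM in both libraries, the 2 largest increases belonged to LG19. Cp4.1LG19g12000 stood at 250.4 FPKM in control root, 129 FPKM with nanoparticles, 3140 FPKM with bulk CuO and 3648 FPKM under CuSO4. Its difference between CuSO4 and control was 3.86 on the log2 scale, a 14.6-fold ratio, and it ranked 3rd of all genes in the CuSO4 library and 248th in the control. The high root libraries were those of bulk CuO and CuSO4, and the low ones those of control and nanoparticles. In leaf the gene was abundant under every treatment, at 628 FPKM in the control, 775 FPKM with nanoparticles, 1479 FPKM with bulk CuO and 638 FPKM under CuSO4. Leaf levels under CuSO4 and control thus differed by only 0.02 on the log2 scale. In pollen it was at most 0.741 FPKM.

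Cp4.1LG19g04630 followed, with 22.0 FPKM in control root, 14.8 FPKM with nanoparticles, 269 FPKM with bulk CuO and 299 FPKM under CuSO4, a log2 difference of 3.70 and a 13.6-fold ratio. Its root libraries split in the same way as those of Cp4.1LG19g12000. In leaf it stood at 36.8 FPKM in the control, 39.9 FPKM with nanoparticles, 88.6 FPKM with bulk CuO and 37.4 FPKM under CuSO4.

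Cp4.1LG19g04630 was also the first of 7 consecutive IDs that were all higher under CuSO4 by at least 1, the longest such run in the root comparison. The next longest run of higher genes had 3 IDs and the longest of lower genes 2. This run was chosen with its values in view. In the order of their numbers, the 7 genes differed by 3.70, 2.45, 1.55, 2.33, 2.35, 2.98 and 1.23 on the log2 scale, so 5 of them were among the 33 genes past 2.3. The third gene was the most abundant transcript of the run, at 2031 FPKM in control root, 1721 FPKM with nanoparticles, 4817 FPKM with bulk CuO and 5950 FPKM under CuSO4, and it did not exceed 0.211 FPKM in leaf or 0.285 FPKM in pollen. The sixth went from 99.2 FPKM in control root to 790 FPKM under CuSO4, with 62.5 FPKM with nanoparticles and 754 FPKM with bulk CuO. The fourth and the fifth had nearly the same level in every root library, 20.8 and 19.6 FPKM in the control and 109 and 104 FPKM under CuSO4. Whether reads were shared between these 2 genes was not tested, so their separate levels are uncertain.

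All 7 genes were lowest with nanoparticles, higher in the control, higher again with bulk CuO and highest under CuSO4. Summed over the run, root levels were 1866 FPKM with nanoparticles, 2266 FPKM in the control, 6386 FPKM with bulk CuO and 7655 FPKM under CuSO4, which made up 0.348%, 0.409%, 1.17% and 1.38% of the FPKM of these libraries. The IDs at its ends are below a difference of 1 by the way the run was defined. The ID before it went from 11.9 FPKM in control root to 7.98 FPKM under CuSO4, and the ID after it was listed at 0 in the control and at 0.083 FPKM under CuSO4. In leaf the run summed to 154 FPKM in the control, 149 FPKM with nanoparticles, 397 FPKM with bulk CuO and 235 FPKM under CuSO4, and in pollen to at most 0.435 FPKM.

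**Figure D2:**
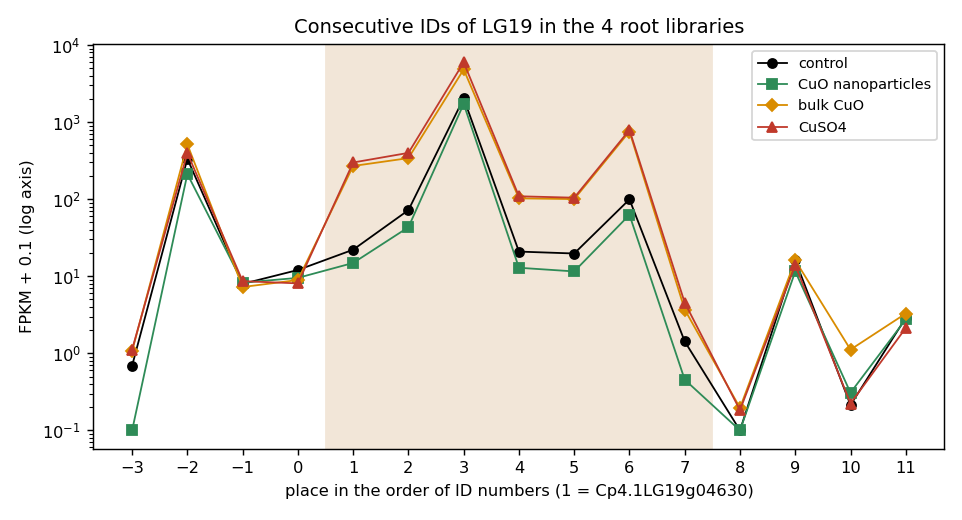
Levels of consecutive IDs of LG19 in the 4 root libraries, as FPKM + 0.1 on a log axis, ordered by ID number with place 1 at Cp4.1LG19g04630. Within the shaded run of 7 genes the bulk CuO and CuSO4 libraries lie above the control and nanoparticle libraries, and at place 0 just before it CuSO4 is lowest.

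Consecutive IDs were also counted within each list. Of the 33 higher genes, 7 (21.2%) had a consecutive ID in the same list, and of the 72 lower genes 2 (2.78%). At a threshold of 1, these were 48 of 531 higher genes (9.04%) and 26 of 551 lower genes (4.72%). Among all genes kept, 94.4% had a consecutive ID that was kept. Such shares depend on the length of the list. No other lists of equal length were drawn, so whether the counts are many or few is not read from them. Besides the LG19 run, the higher list held 1 further pair, on LG01, at 1.14 and 0.261 FPKM in the control and 17.4 and 6.59 FPKM under CuSO4. The only pair among lower genes was on LG10 and is described with the leaf values. There were also 2 pairs of consecutive IDs in which 1 gene was higher and the other lower, and 1 of these pairs is described with the leaf values. LG19 held 8 of the 33 higher genes (24.2%) and 4.41% of all genes kept, and 5 of the 72 lower genes (6.94%). Of the 8 higher genes, 5 belonged to the run chosen with its values in view, so their share in part restates that run. The LG00 prefix was carried by 7 of the higher genes (21.2%), 8 of the lower genes (11.1%) and 4.35% of the genes kept.

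The largest decreases among genes above 0 FPKM in both libraries were those of Cp4.1LG15g04120 and Cp4.1LG08g12300. Cp4.1LG15g04120 stood at 14.6 FPKM in control root, 3.36 FPKM with nanoparticles, 5.53 FPKM with bulk CuO and 0.123 FPKM under CuSO4, a log2 difference of -3.79. All 3 copper libraries were below the control, and that of CuSO4 was the lowest. With 5 in place of 1 added before the log, its difference was -1.93. In leaf it stood at 10.0 FPKM in the control, 7.74 FPKM with nanoparticles, 6.03 FPKM with bulk CuO and 1.42 FPKM under CuSO4, a difference of -2.19. The control was again the highest and CuSO4 the lowest, and the gene was listed at 0 in all 4 pollen libraries.

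Cp4.1LG08g12300 stood at 38.3 FPKM in control root, 28.8 FPKM with nanoparticles, 43.3 FPKM with bulk CuO and 2.22 FPKM under CuSO4, a log2 difference of -3.61. Here the CuSO4 library alone was low, at least 3.21 below each of the other 3. The gene was at most 0.355 FPKM in any leaf library and listed at 0 in pollen. Its level in root was higher than in leaf by 4.92 on the log2 scale (SE 0.21, limma adjusted p = 2.85e-07). That fit left out the control and CuSO4 root libraries. The gene was nevertheless kept by its root mean and chosen for a clear level in control root. A higher level in root than in leaf was thus partly fixed by that choice.

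Levels in the other 2 copper libraries are described next for the higher and the lower genes. Among the 21 higher genes above 0 FPKM in both libraries, the median level was 2.70 FPKM in control root, 5.34 FPKM with nanoparticles, 23.1 FPKM with bulk CuO and 19.3 FPKM under CuSO4. Among the 49 lower genes above 0 FPKM in both, it was 39.3 FPKM in the control, 24.8 FPKM with nanoparticles, 22.4 FPKM with bulk CuO and 5.06 FPKM under CuSO4. Taken gene by gene on the log2 scale, bulk CuO was nearer to CuSO4 than to the control for 22 of all 33 higher genes and for 31 of all 72 lower genes. Nanoparticles were nearer to CuSO4 for 11 of the 33 and 13 of the 72. The same count over all genes was not made, so these counts have no background and nothing is read from them. The control and CuSO4 libraries chose these genes, so their own 2 levels carry no support, and the comparisons of each material with the control share that library.

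**Figure D3:**
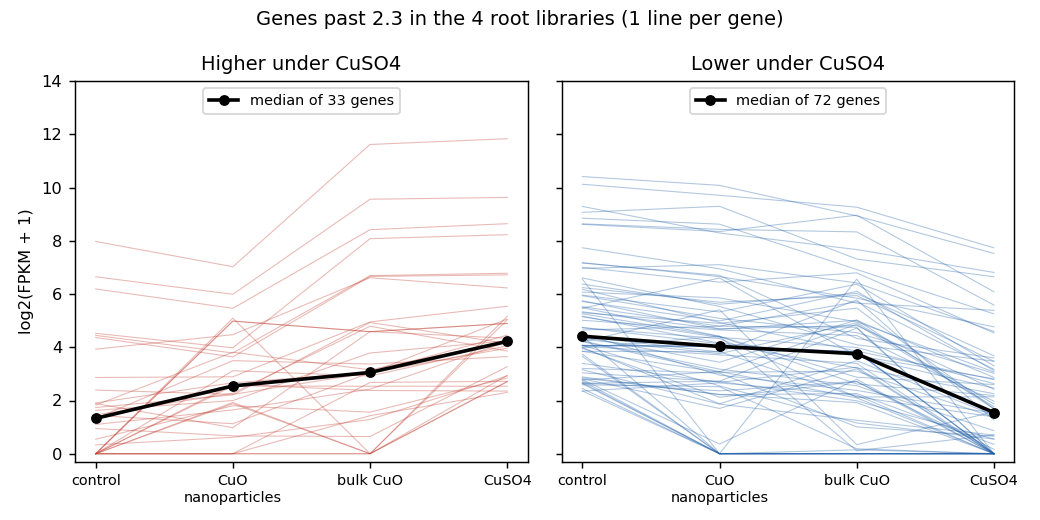
Levels of the 33 higher and 72 lower genes in the 4 root libraries, as log2(FPKM + 1), 1 thin line per gene, with the median over genes in black. Medians over all genes shown, those listed at 0 included, were 1.51, 4.84, 7.30 and 17.6 FPKM for the higher and 20.3, 15.3, 12.5 and 1.92 FPKM for the lower genes, from control to CuSO4.

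The CuSO4 library was then set against all 3 other root libraries, which asks whether it stood apart or the control did. Only 3 genes (0.0143%) were higher by at least 2.3 than in each other library, and 12 (0.0572%) were lower. The same count gave 8 higher and 5 lower genes for the control library, 5 and 5 for nanoparticles, and 83 and 16 for bulk CuO. Of the 12 lower genes, 4 were above 0 FPKM in all 4 root libraries, and 3 of the others had identical values in all 12 libraries of the series. Of the 3 higher genes, 1 was above 0 FPKM in all 4 root libraries.

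Cp4.1LG01g19650 was the most abundant gene that CuSO4 alone set apart. It stood at 397 FPKM in control root, 343 FPKM with nanoparticles, 322 FPKM with bulk CuO and 47.0 FPKM under CuSO4. The 3 other root libraries lay close together, and CuSO4 was at least 2.75 below each. In leaf it was between 7.36 and 16.6 FPKM. Its root level exceeded the leaf level by 4.75 on the log2 scale (SE 1.26, limma adjusted p = 0.0152). In pollen the order was different, with 0.452 FPKM in the control, 0.324 FPKM with nanoparticles, 27.4 FPKM with bulk CuO and 29.0 FPKM under CuSO4. The SE pools the spread within root, leaf and pollen, so this pollen range enters it. The gene was also chosen for high levels in the nanoparticle and bulk CuO roots of the fit, which partly fixed the difference from leaf.

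Cp4.1LG02g08860 stood at 20.3 FPKM in control root, 13.1 FPKM with nanoparticles, 53.9 FPKM with bulk CuO and 1.41 FPKM under CuSO4, and it was listed at 0 in every leaf and pollen library. CuSO4 was at least 2.55 below each other root library, and bulk CuO was the highest. Cp4.1LG04g01550, the higher gene, stood at 0.929 FPKM in control root, 0.592 FPKM with nanoparticles, 0.565 FPKM with bulk CuO and 8.66 FPKM under CuSO4, a smallest distance of 2.32. In leaf it was far more abundant under every treatment, between 27.6 and 48.8 FPKM, and in pollen it stood at 0.287 FPKM in the control, 0 with nanoparticles, 11.4 FPKM with bulk CuO and 13.7 FPKM under CuSO4. Its root level differed from the leaf level by -4.67 on the log2 scale (SE 1.02, limma adjusted p = 0.00584). This fit, too, left out the control and CuSO4 roots, and the pollen range enters its SE. The gene was chosen for low levels in the nanoparticle and bulk CuO roots of the fit, which partly fixed the difference from leaf.

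Many of the genes past 2.3 were listed at 0 in 1 of the 2 libraries, and an exact 0 in such a table can be a failed estimate. Of the 33 higher genes, 12 were listed at 0 in the control, with 3.94 to 34.8 FPKM under CuSO4. Of these 12, 5 were above 0 in both other copper libraries, and 2 were at 0 in both. Of the 72 lower genes, 23 were listed at 0 under CuSO4, with 4.11 to 93.1 FPKM in the control. Of these 23, 14 were above 0 with both nanoparticles and bulk CuO, and 6 were at 0 in both. The LG00 prefix was carried by 6 of the 12 and by 6 of the 23. A gene at 0 in 1 root library with at least 10 FPKM in each of the other 3 was found 2 times for the control, 3 times for nanoparticles, 0 times for bulk CuO and 4 times for CuSO4, 3 of the last being the genes with identical values. Genes above 0 in both libraries numbered 21 among the higher and 49 among the lower.

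Leaf has its own control library, so the root genes could be described there without a shared library. The labels do not say whether root and leaf came from the same plants. The leaf values are therefore not taken as an independent repeat of the root comparison. Of the 72 genes lower in root, 47 averaged at least 1 FPKM over the 4 leaf libraries, and 11 of these (23.4%) were also lower by at least 2.3 under CuSO4 in leaf, while 0 were higher. Among all 19053 genes kept in both tissues, 3.26% were lower and 2.17% higher in leaf at that threshold. The median leaf difference of the 47 genes was -0.73, against 0.05 for all genes. At a threshold of 1, 21 of the 47 were lower in leaf (44.7%) and 2 higher (4.26%), against 13.3% lower and 15.4% higher among all genes. Of the 21 genes higher in root that were kept in leaf, 1 was higher and 2 were lower in leaf by 2.3, and their median leaf difference was 0.00. At 1, 1 of the 21 was higher in leaf (4.76%) and 5 were lower (23.8%), so lower leaf levels outnumbered higher ones here too. Of these 5, the 2 lower by 2.3 had the same values in the libraries compared. Both were listed at 0 in control root and in CuSO4 leaf. Without genes listed at 0, 14 of the 21 remained, with 0 lower by 2.3 and a median of 0.12. Of the 366 genes higher in root by at least 1 and kept in leaf, 6.28% were higher and 11.5% lower in leaf at 2.3, against 2.89% and 15.4% of the 415 genes lower in root by at least 1. Leaving out genes listed at 0 in either tissue left 7 genes lower in both tissues and 1 higher in both.

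Cp4.1LG03g05150 led the genes above 0 that were lower in both tissues, ordered by the smaller of their 2 differences. Its root levels were 142 FPKM in the control, 103 FPKM with nanoparticles, 19.1 FPKM with bulk CuO and 11.1 FPKM under CuSO4. Its leaf levels were 96.9 FPKM, 84.5 FPKM, 8.30 FPKM and 7.87 FPKM in the same order, with log2 differences between CuSO4 and control of -3.57 in root and -3.46 in leaf. In both tissues the control and nanoparticle libraries were high and the bulk CuO and CuSO4 libraries low. It was listed at 0 in pollen.

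Cp4.1LG10g00940 showed the same arrangement, with 25.6, 19.1, 3.38 and 3.40 FPKM in root and 36.0, 50.9, 0.974 and 0.771 FPKM in leaf for control, nanoparticles, bulk CuO and CuSO4. Its differences were -2.59 in root and -4.38 in leaf. The gene with the next ID number, also past 2.3 in both tissues, stood at 212, 122, 49.4 and 40.9 FPKM in root and at 119, 131, 0 and 1.15 FPKM in leaf. These 2 genes are the only consecutive pair among the lower genes.

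Cp4.1LG12g01560 was the gene higher in both tissues. It stood at 2.54 FPKM in control root, 13.0 FPKM with nanoparticles, 7.89 FPKM with bulk CuO and 17.6 FPKM under CuSO4, a difference of 2.40. In leaf it stood at 1.63, 2.75, 15.0 and 13.5 FPKM in the same order, a difference of 2.46. All copper libraries of both tissues were above their control, the nanoparticle leaf by little. The preceding ID, Cp4.1LG12g01550, went the other way in root. It stood at 11.6 FPKM in the control, 0 with nanoparticles, 0.108 FPKM with bulk CuO and 0 under CuSO4. In leaf it was listed at 0 under every treatment. Whether reads were shared between these neighbouring IDs was not tested, so the separate root levels are uncertain.

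**Figure D4:**
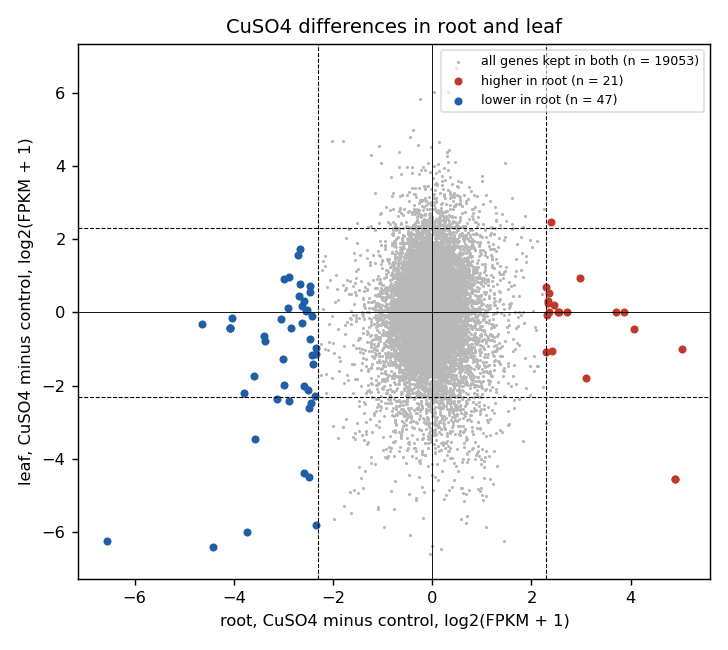
Log2(FPKM + 1) difference between CuSO4 and control in root (horizontal) and leaf (vertical), 1 point per gene that averaged at least 1 FPKM in each tissue, with dashed lines at 2.3. Of the 47 genes lower in root, 11 lie below the lower dashed line and 0 above the upper one. Of the 21 genes higher in root, 1 lies above it and 2, with the same values, lie below.

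In pollen, 3 of the 33 higher and 24 of the 72 lower genes averaged at least 1 FPKM, as did 9855 of all 20985 genes. Of the 24, 5 were higher in pollen under CuSO4 by 2.3 and 1 was lower, while 1.85% of the 9855 genes were higher and 0.0507% lower. Of the 3, 2 were higher in pollen, and 0 were lower.

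Root and leaf levels were compared with limma over 10 libraries, without the control and CuSO4 root libraries that chose the genes, so that root was represented by the nanoparticle and bulk CuO libraries. The different treatments of a tissue served as its replicates. Each gene had a common spread, pooled over root, leaf and pollen, which gave its SE. Of the 20985 genes, 18.3% were called higher in root than in leaf and 10.5% lower, at a limma adjusted p under 0.05 and a difference of at least 1. Among the 72 genes lower under CuSO4, 36 were called higher in root than in leaf and 4 lower, which is 50% and 5.56%. Among the 33 genes higher under CuSO4, 10 were called higher in root and 1 lower, which is 30.3% and 3.03%. The genes entered through their root levels, and a lower gene needed a clear level in control root (at least 4.11 FPKM), while 17 of the 72 were listed at 0 in control leaf. Part of their excess over all genes was thus fixed by how they were chosen, and nothing particular to them is read from it. The median difference between root and leaf was 1.67 for the lower genes, 0.96 for the higher genes and 0.26 for all genes. At a threshold of 1 the directions were closer and in the other order, with 180 of 551 lower genes (32.7%) and 197 of 531 higher genes (37.1%) called higher in root than in leaf. Against pollen, 72.9% of all genes were called higher in root and 7.17% lower, and the members were close to this, at 68.1% and 5.56% of the lower genes and 72.7% and 0% of the higher genes.

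**Figure D5:**
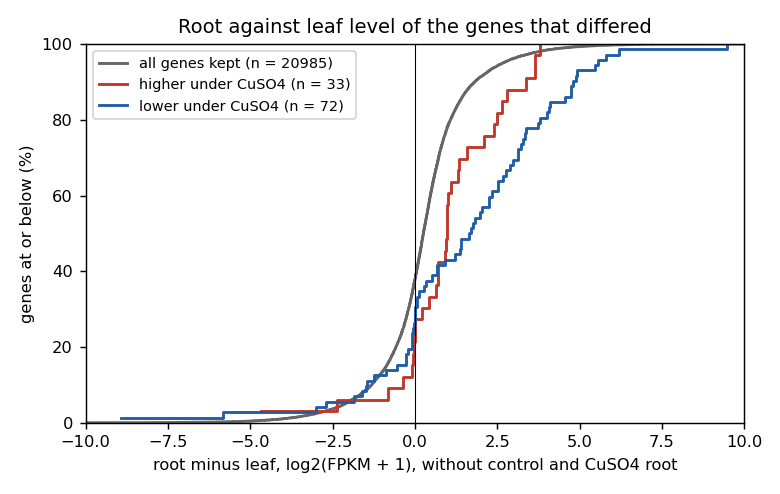
Cumulative share of genes (%) by the difference between root and leaf in log2(FPKM + 1), with root taken from the nanoparticle and bulk CuO libraries only. The curve of the 72 genes lower under CuSO4 lies to the right of that of all 20985 genes over most of its range, with medians of 1.67 and 0.26, and the curve of the 33 higher genes has its median at 0.96.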

How the data were processed

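The authors deposited 1 table of FPKM values for 27868 genes in 12 libraries, made per the labels from stranded TruSeq mRNA libraries sequenced as single 75 bp reads. The series text names STAR with default parameters and a cucurbit reference transcriptome, and the submitters' processing notes also list cutadapt and StringTie. Neither their versions nor the build is given in the sources read. The table holds no counts, so no count model and no counting intervals were used, and absolute depth is unknown. Relative depth was read from low values (0.05 to 1.5 FPKM), whose ratios between libraries cluster at whole-number ratios.

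Values were analysed as log2(FPKM + 1) for genes whose mean over the 4 root libraries reached 1 FPKM. With 1 library per side, differences were described by size. Root was set against leaf and pollen in limma 3.58.1 under R 4.3.3, with tissue means, empirical Bayes moderation with a trend, and Benjamini-Hochberg adjustment over the 20985 genes. Other steps used Python 3.11.15, numpy 2.4.6, pandas 2.3.3 and matplotlib 3.10.9. The threshold calls, the counts of genes set apart from the other root libraries, the limma fit and quantile normalization were tried on simulated data. The remaining steps were not.

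Named genes were the 2 with the largest difference per direction and comparison, above 0 FPKM in the libraries compared. For root against control and for CuSO4 set against all other root libraries, at least 5 FPKM in the highest library was required. Genes already named were passed over. The genes, lists and rules were chosen with earlier results of these data known. Alternatives were pseudocounts of 0.1 and 5, other filters, thresholds of 1 and 3, a median shift, quantile normalization, a tissue fit of all 12 libraries with treatment as a block, and leaving out genes listed at 0 or with the LG00 prefix.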

Additional observations from a re-analysis of the deposited data

Results flagged for a closer look

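Under CuSO4, 2 genes were past 2.3 in opposite directions in root and leaf. Both were higher in root, by 4.89, and lower in leaf, by -4.54, on the log2 scale, and both were listed at 0 in control root and in CuSO4 leaf. The 2 genes had the same values in all 4 libraries compared, and whether they share reads was not tested. In root and pollen, 5 genes were past 2.3 in opposite directions. All 5 were lower in root, with differences of -3.05 to -2.42, and higher in pollen, with differences of 2.32 to 6.30. Of these, 3 were above 0 FPKM in all 4 libraries compared. The difference between tissues was not tested in either case, since each tissue has 1 library per treatment.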

How the results depend on the processing

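Counts moved with the pseudocount. At 0.1, 98 genes were higher and 170 lower under CuSO4, and at 5, 8 and 21. A threshold of 1 gave 531 and 551, and a threshold of 3 gave 8 and 25. Without genes listed at 0, 21 were higher and 49 lower. In each of these settings lower genes outnumbered higher ones. For CuSO4 set apart from all 3 other root libraries, 0.1 gave 8 higher and 60 lower genes, 5 gave 1 and 2, a threshold of 1 gave 98 and 106, a threshold of 3 gave 1 and 6, leaving out genes listed at 0 gave 1 and 4, and a minimum mean of 5 FPKM gave 1 higher gene. These counts are small, and 1 gene moves them. A median shift, quantile normalization, no filter, or leaving out IDs with the LG00 prefix kept every count of root genes within 1.5 times.

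The median leaf difference of genes lower in root was -0.84 after quantile normalization and -0.96 without genes listed at 0. That of genes higher in root was 0.12 without genes listed at 0. The median pollen difference of genes higher in root, which rests on 3 genes, was 2.36, and 2.16 after a median shift and 2.13 after quantile normalization. That of genes lower in root was 0.47, and 0.27 and 0.24 in these settings. Calls of root against leaf ranged over the alternatives from 29 to 36 of the 72 lower genes and from 7 to 10 of the 33 higher genes, while the share over all genes ranged from 11.5% to 19.9%. A fit of all 12 libraries with treatment as a block, which pairs tissues by treatment, called 34 and 8 of these genes and 19.9% of all genes. That fit includes the control and CuSO4 root libraries that chose the genes, so its calls give no separate support. No paired analysis was possible for CuSO4 against control because each side has 1 library. The lowest FPKM values come from few reads, so differences that rest on them are the least certain.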
